A study of Mus musculus with 4 samples.

Results

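The genes described here are those of the p53 response, the BCL2 family and the caspases, which together decide whether a stressed cell repairs itself, stops dividing or dies. A list of 40 genes was matched by symbol to the deposited count table, and those whose counts over the 4 libraries summed to 15 or more were kept, which left 39 of the 23420 genes of the table. Hrk, a BH3-only gene, was left out with 8 and 3 counts in the KO-labelled libraries and 0 and 0 in the het-labelled ones, while Pmaip1, with 11 and 34 against 4 and 6 counts, had the fewest counts among the genes kept. The RNA came from sorted mouse pancreatic β-cells, 2 libraries labelled Bmal1KO and 2 labelled Bmal1+/-. In both groups the mice carried DTA, the toxic chain of diphtheria toxin, which stops protein synthesis, and had received doxycycline for 10 days, so that the cells sequenced are residual β-cells, sorted after ablation. How far the ablation went was not measured here. Not given in the sources used here are the promoter that drives DTA, the kind of Bmal1 allele, the age of the mice and whether a library stands for 1 animal or a pool. A group without ablation was not analysed here, so the levels below are not set against those of undisturbed β-cells.

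p53, encoded by Trp53, is a transcription factor that is held low by the ubiquitin ligase MDM2 and its relative MDM4 and is released by DNA damage and other stress. It then switches on genes that halt the cell cycle, repair damage or favour death, among them Bax and the BH3-only genes Bbc3 and Pmaip1. At the mitochondrial outer membrane, pro-survival proteins such as BCL-XL and MCL1 hold back the pore-forming effectors BAX and BAK, and BH3-only proteins tip that balance. Once the pore opens, cytochrome c assembles APAF1 and caspase-9 into the apoptosome, which activates the caspases that take the cell apart.

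The libraries held 32819576 and 31056116 counts under the KO label and 38020488 and 34776920 under the heterozygous label. Values are CPM, read counts relative to the library total as scaled by the TMM method. Differences are log2 fold changes of the KO-labelled libraries over the het-labelled ones, tested with edgeR's quasi-likelihood test and adjusted by the Benjamini-Hochberg method over the 14649 genes that passed a filter on low counts, with an adjusted p of 0.05 as the threshold. The labels do not say that libraries sharing a label are from different animals, so p-values measure only the spread between these 4 libraries, and that spread can be technical. Arntl, the gene of BMAL1, was higher in the KO-labelled libraries (75.8 and 65.6 against 23.0 and 14.98 CPM), and counts over the whole gene cannot show whether a part of it is missing, so the groups are called by their labels, KO-labelled and het-labelled. β-cell markers were abundant in every library and their sums overlapped, at 274487 and 235714 CPM under the KO label and 218178 and 277175 CPM under the heterozygous label, while 4 of 13 such markers fell (Slc30a8, Ucn3, Glp1r and G6pc2) and 0 rose. Most of each sum was Ins2 (194550 and 168848 against 151722 and 187302 CPM), so the sums say little about the other markers. Both KO-labelled libraries lay below both het-labelled ones for 9 of the 13, beside 23.8% of all genes, and above for 0, beside 25.3%. The KO-labelled libraries had higher sums of 13 stromal markers (174 and 439 against 70.6 and 29.5 CPM; 5 of 10 tested rose), 14 immune markers (353 and 959 against 278 and 294 CPM; 2 of 14 rose) and 13 acinar markers (190 and 94.6 against 71.4 and 24.97 CPM; 0 of 11 passed), and 0 of these markers were at 0 in all libraries. The sum of 7 duct markers was lower in the KO-labelled libraries (569 and 548 against 742 and 818 CPM). Most of it was Krt7 (368 and 397 against 567 and 663 CPM). Of 6 duct markers tested 0 passed, and both KO-labelled libraries lay above both het-labelled ones for 2 and below for 1, Krt7. Hormone and other markers of α, δ, PP and ε cells were far more abundant, with sums over 11 markers of 5850 and 10678 against 5313 and 5696 CPM. Of 10 tested 1 rose, Irx2 (21.9 and 12.7 against 2.30 and 3.27 CPM), 0 fell and 5 were higher at an unadjusted p under 0.05, among them Gcg, the gene of glucagon (1630 and 3303 against 1340 and 1283 CPM), and Ppy, that of pancreatic polypeptide (1974 and 4008 against 1319 and 1046 CPM). Both KO-labelled libraries lay above both het-labelled ones for 6 of the 10, beside 25.3% of all genes. They lay below for 1, Ttr (1231 and 1180 against 1323 and 2000 CPM), beside 23.8%. The δ-cell markers Sst (539 and 1403 against 948 and 1043 CPM) and Hhex overlapped between the labels. RNA of Xist, from the inactive X chromosome (8.68 and 38.8 against 72.3 and 67.5 CPM), and of the Y-linked Ddx3y (89.1 and 23.8 against 20.5 and 12.1 CPM) was present in every library. Both KO-labelled libraries were lower in Xist (log2 fold change -1.56, edgeR adjusted p = 0.233) and higher in Ddx3y (1.79, edgeR adjusted p = 0.176). The mix of these RNAs thus differed with the label, and its part in the differences below was not tested. The KO-labelled libraries also had a lower sum of 20 mitosis genes (116 and 238 against 862 and 1069 CPM), of which 15 fell. In such bulk samples fewer cells of a type and less RNA per cell cannot be told apart.

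All 39 genes passed the filter on low counts. Of these, 1 fell in the KO-labelled libraries (Gtse1), 0 rose and 38 did not pass. That is 2.56% of the genes, beside 2.54% of all genes tested (1.20% higher and 1.34% lower). By DESeq2 3 passed (Plk2 and Phlda3 higher, Gtse1 lower) and by limma-voom 1 (Gtse1), so that 0 BCL2 genes and caspases of the list passed by any of these tools. The edgeR count was 0 without heterozygous library 1 or 2, 2 without KO library 1 and 3 without KO library 2. At an unadjusted p under 0.05 there were 5, or 12.8%, beside 16.9% of all genes: Plk2, Phlda3 and Bax were higher, beside 9.12% of all genes, and Gtse1 and Apaf1 lower, beside 7.75%. The labels did not overlap for 21 of the 39 genes, or 53.8%, beside 49.0% of all genes. Both KO-labelled libraries were above both het-labelled ones for 13, beside 25.3% of all genes, and below for 8, beside 23.8%. The median log2 fold change was 0.13 over these genes and 0.02 over all genes, and the median size of the change, whatever its sign, was 0.28 and 0.29. The share that passed and the share without overlap in either direction lay near those of all genes. The plot of log2 fold changes by role shows where the few larger differences lie.

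**Figure D1:**
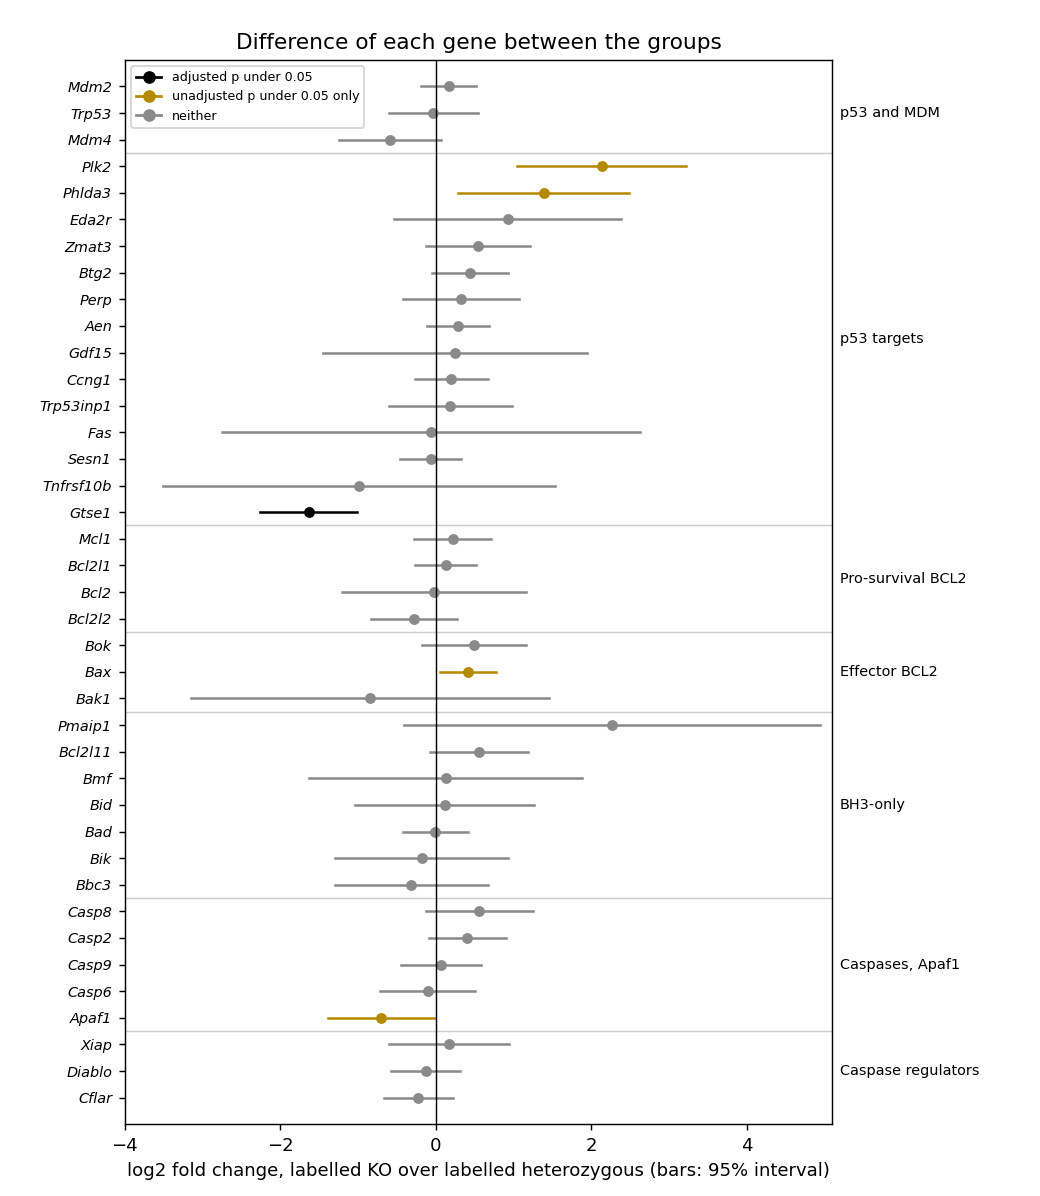
Log2 fold change of each of the 39 genes, KO-labelled over het-labelled libraries (2 libraries each), grouped by role; points are edgeR estimates and bars their 95% intervals. Gtse1 alone passed at an adjusted p of 0.05, at -1.63, and the intervals of the low-count genes Fas, Tnfrsf10b, Bak1 and Pmaip1 are the widest.

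Trp53 itself was at 33.4 and 27.5 CPM in the KO-labelled libraries and at 37.2 and 24.9 CPM in the het-labelled ones. Its groups overlapped, and the log2 fold change was -0.03 (SE 0.24, 95% interval -0.60 to 0.54, edgeR adjusted p = 0.970), with a sign that turned when libraries were scaled by their totals alone (0.0045). Mdm2, both the main brake on p53 and one of its direct targets, was at 105 and 123 CPM under the KO label and 104 and 99.1 CPM under the heterozygous label. Both KO-labelled libraries lay slightly above the others, with a log2 fold change of 0.17 and an interval of -0.19 to 0.52 (edgeR adjusted p = 0.641). Mdm4, which binds p53 and blocks its activity, was at 10.4 and 15.4 CPM against 21.0 and 17.7 CPM in the het-labelled libraries. Both KO-labelled libraries were the lower ones, but the difference did not pass (log2 fold change -0.58, SE 0.28, edgeR adjusted p = 0.352). Per kilobase of exon, Mdm2 was the most abundant of these regulators in every library (20.6 and 24.2 against 20.4 and 19.5 CPM per kilobase), above Trp53 (8.25 and 6.80 against 9.19 and 6.17) and Mdm4 (0.704 and 1.04 against 1.42 and 1.20).

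Among 14 other p53 targets, 1 fell in the KO-labelled libraries, 0 rose and 13 did not pass, which is 7.14% called beside 2.54% of all genes. At an unadjusted p under 0.05 there were 3, or 21.4%, beside 16.9%. Levels were higher for 10 and lower for 4, beside 7670 higher and 6979 lower of all 14649 genes. The median log2 fold change was 0.27 for these targets and 0.02 over all genes. The gene that fell was Gtse1, whose protein appears in the G2 and S phases, binds p53 and moves it out of the nucleus, and also acts on spindle microtubules. Gtse1 (chromosome 15, 85859745 to 85876573, GRCm38, plus strand) was at 6.49 and 8.56 CPM in the KO-labelled libraries and at 24.8 and 21.8 CPM in the het-labelled ones. The KO-labelled libraries both lay below the het-labelled ones, by more than the spread within either label. The group means were 7.52 ± 1.46 and 23.3 ± 2.13 CPM (SD, n = 2 each, KO-labelled and het-labelled), and the log2 fold change was -1.63 with an SE of 0.26 (edgeR adjusted p = 0.0286). The call was lost without heterozygous library 1 (-1.54, adjusted p = 0.129) and without heterozygous library 2 (-1.74, adjusted p = 0.127), and over all alternatives the adjusted p ran from 7.85e-06 to 0.129 while the sign held. The sum over 20 mitosis genes moved with it, at 116 and 238 CPM under the KO label and 862 and 1069 CPM under the heterozygous label; its part in the Gtse1 difference was not tested.

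The sequence upstream of Gtse1 is shown because promoters of genes that peak in G2 and mitosis often carry CCAAT boxes and a CHR element, and Gtse1 was the one gene of the list to pass the test. These are the 250 bases before its upstream RefSeq start on GRCm38.p6, chr15:85859457-85859706, plus strand, with CCAAT (or ATTGG, its reverse) and the CHR letters TTTAAA in capitals.
Gtse1: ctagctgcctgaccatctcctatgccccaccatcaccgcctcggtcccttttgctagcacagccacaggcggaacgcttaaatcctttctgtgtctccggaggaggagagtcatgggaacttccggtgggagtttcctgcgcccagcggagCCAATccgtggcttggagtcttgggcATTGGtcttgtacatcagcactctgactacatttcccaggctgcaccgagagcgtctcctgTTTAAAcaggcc
CCAAT was searched on both strands in windows from 250 bases before to 50 after each RefSeq start. It was present for 41.1% of 27025 genes with a window, and for 14 of 18 mitosis genes and 16 of 34 listed genes that had one. TTTGAA or TTTAAA, on both strands, was present for 30.6% of all genes, for 15 of the 18 mitosis genes and for 15 of the 34. A match of letters is a description of the window and not a bound site.

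Plk2 and Phlda3 had the largest differences among the targets that did not pass. Plk2, a Polo-like kinase induced by p53 and by growth signals, was at 112 and 344 CPM in the KO-labelled libraries and at 54.4 and 49.3 CPM in the het-labelled ones. The KO-labelled libraries both lay above the het-labelled ones, and KO library 2 lay far above KO library 1. The log2 fold change was 2.14 with an SE of 0.46 (edgeR adjusted p = 0.0677). With KO library 1 left out it was 2.70 (adjusted p = 0.00214), with KO library 2 left out 1.10 (adjusted p = 0.0149), and over all alternatives the adjusted p ran from 0.00214 to 0.238. The stromal marker sum, the immune marker sum, the sum of α, δ, PP and ε markers, Gcg and Ppy were also highest in KO library 2 and next in KO library 1; their part in the Plk2 difference was not tested.

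Phlda3, which restrains AKT at the membrane, was at 32.6 and 18.02 CPM under the KO label and at 13.7 and 5.60 CPM under the heterozygous label. The groups did not overlap, but the libraries within each label were well apart (log2 fold change 1.39, SE 0.47, 95% interval 0.29 to 2.48, edgeR adjusted p = 0.193). With DESeq2 the adjusted p was 0.0390, and it ran from 0.0224 to 0.628 over all alternatives. With a library left out the log2 fold change lay between 0.87 (without KO library 1) and 2.17 (without heterozygous library 1), and without heterozygous library 2 it was 0.88. Acinar markers, at 190 and 94.6 against 71.4 and 24.97 CPM, and endothelial markers, at 39.7 and 18.4 against 15.03 and 10.99 CPM, had the same order over the libraries, as did the Y-linked Ddx3y; their part in it was not tested.

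The most abundant target was Btg2, an antiproliferative gene that is also an immediate early gene, at 328 and 216 CPM under the KO label and 202 and 198 CPM under the heterozygous label. Both KO-labelled libraries were higher, KO library 2 only slightly (log2 fold change 0.44, SE 0.21, edgeR adjusted p = 0.343). Without KO library 2 it was 0.71 (adjusted p = 0.0425, with a range of 0.0425 to 0.829 over all alternatives). Of 18 immediate early genes, 5 rose in the same libraries and 0 fell, and their sum was 2112 and 1349 CPM against 815 and 852 CPM under the heterozygous label; its part in the Btg2 values was not tested. Fas, the death receptor, had the lowest mean of the targets, at 0.183 and 1.03 against 0.955 and 0.303 CPM. Its libraries interleaved, and with 6 to 37 counts per library a difference was not detectable at this depth (95% interval -2.74 to 2.63).

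The remaining targets stayed within 1 unit of log2 fold change. Sesn1, a sestrin that restrains mTORC1, was almost level, at 36.5 and 36.7 CPM under the KO label and 37.8 and 38.7 CPM under the heterozygous label (log2 fold change -0.06, 95% interval -0.45 to 0.33). Ccng1 (cyclin G, 0.20), Aen (a nuclease that digests DNA in apoptosis, 0.29), Trp53inp1 (a cofactor of p53, 0.19), Perp (a membrane protein, 0.33) and Gdf15 (a stress-induced hormone, 0.24) had small positive values. Zmat3, which encodes an RNA-binding protein, was at 0.54, and Eda2r, an X-linked receptor of the TNF family, at 0.93 with 40 to 87 counts per library. Tnfrsf10b, the mouse receptor of TRAIL, was at -0.99 with 4 to 39 counts per library. None of these 9 genes passed, and their edgeR adjusted p-values lay between 0.401 and 0.916.

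**Figure D2:**
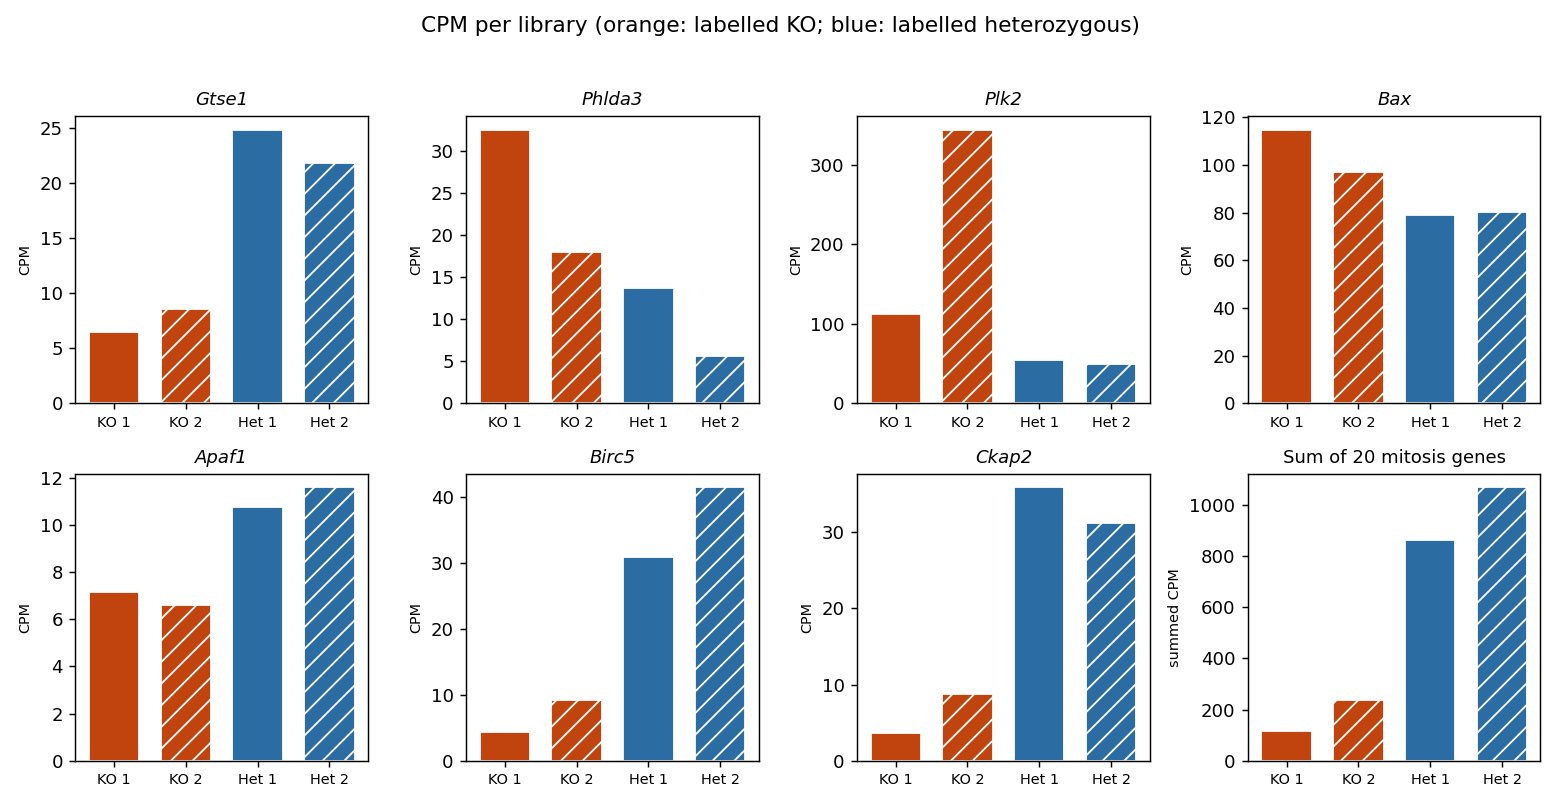
CPM in each library (bars; orange, the 2 KO-labelled libraries; blue, the 2 het-labelled ones; hatched, library 2) for the 5 genes with an unadjusted p under 0.05, for Birc5 and Ckap2, and for the sum of 20 mitosis genes. Gtse1, Birc5, Ckap2 and the mitosis sum were lower in both KO-labelled libraries, Apaf1 was lower by less, and Plk2 was highest in KO library 2 at 344 CPM.

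Of 4 pro-survival BCL2 genes 0 passed, at either the adjusted threshold (beside 2.54% of all genes) or an unadjusted p under 0.05 (beside 16.9%). Their log2 fold changes lay between -0.28 and 0.22. Mcl1, whose protein is short-lived and must be made continually, was at 92.95 and 105 CPM under the KO label and at 67.9 and 102 CPM under the heterozygous label. Heterozygous library 1 was the low one, and the groups overlapped (log2 fold change 0.22, 95% interval -0.28 to 0.72, edgeR adjusted p = 0.672). Bcl2l1, the gene of BCL-XL, was at 62.9 and 53.1 against 55.5 and 50.6 CPM, with overlapping groups (log2 fold change 0.13, 95% interval -0.27 to 0.52, edgeR adjusted p = 0.766). Bcl2, the founding member, was low, at 4.02 and 7.59 against 7.90 and 3.87 CPM. The 2 libraries of each label differed from each other more than the labels did (log2 fold change -0.02, 95% interval -1.20 to 1.16), and the sign turned when libraries were scaled by their totals alone (0.013). Bcl2l2, the gene of BCL-W, was lower in both KO-labelled libraries and did not pass (-0.28, edgeR adjusted p = 0.624). Per kilobase of exon Mcl1 made up 53.2% to 66.3% of the pro-survival RNA of a library and Bcl2l1 24.5% to 32.4%, while Bcl2 made up 0.94% to 2.31%.

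Among the effectors, Bax supplied nearly all of the RNA and had the smallest p, although it did not pass. Bax (chromosome 7, 45461697 to 45466898, GRCm38, minus strand) was at 115 and 97.05 CPM in the KO-labelled libraries and at 78.9 and 80.1 CPM in the het-labelled ones. The labels did not overlap, and the KO-labelled libraries were higher. The log2 fold change was 0.41 (SE 0.15, 95% interval 0.056 to 0.77, edgeR adjusted p = 0.230), and the coding gene model Gm45808 shares 12.2% of its exon length, which counts that may not use strand cannot separate. Bak1, the gene of BAK, was near the floor, with 7 and 17 counts against 25 and 23 (0.213 and 0.531 against 0.646 and 0.696 CPM). Both KO-labelled libraries were lower, but a difference in Bak1 was not detectable at this depth (log2 fold change -0.85, 95% interval -3.15 to 1.46). Up to 25.5% of its exon length overlaps the coding gene Ggnbp1, as bases were summed over gene records that may overlap each other. Bok, a relative with effector activity of its own, was at 0.50 (edgeR adjusted p = 0.443). Per kilobase of exon Bax made up 90.2% to 90.8% of the effector RNA in every library, Bok 8.71% to 9.69% and Bak1 0.11% to 0.514%.

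Of 7 BH3-only genes, 0 passed, beside 2.54% of all genes tested. Levels were higher for 4 and lower for 3, beside 7670 higher and 6979 lower of all 14649 genes. Bad, whose protein binds BCL-XL and is inactivated by survival kinases, was the most abundant of them per kilobase in every library and the one gene of the 39 nearest to no difference, at 28.5 and 28.7 CPM under the KO label and 28.8 and 28.5 CPM under the heterozygous label. All 4 libraries lay together (log2 fold change -0.0041, 95% interval -0.43 to 0.42), and the sign turned by library totals alone (0.042). Bbc3, the gene of PUMA and a direct p53 target, was at 15.2 and 7.81 CPM against 18.3 and 10.3 CPM. Library 1 was the higher of each label and the groups overlapped (log2 fold change -0.31, 95% interval -1.29 to 0.67, edgeR adjusted p = 0.774). Bcl2l11, the gene of BIM, was at 14.4 and 12.6 CPM under the KO label and 9.04 and 9.35 CPM under the heterozygous label, so both KO-labelled libraries were higher without passing (0.56, SE 0.27, edgeR adjusted p = 0.358). Pmaip1, the gene of NOXA and another p53 target, was at 0.335 and 1.06 against 0.103 and 0.182 CPM, and its log2 fold change of 2.27 rests on 4 to 34 counts per library and has an interval of -0.40 to 4.95 (edgeR adjusted p = 0.376). Bid (0.11), which caspase-8 cleaves, Bik (-0.18) and Bmf (0.13) had edgeR adjusted p-values of 0.903 to 0.959.

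The contrast between survival and death genes was taken as the log2 ratio of summed CPM per kilobase, pro-survival genes over effectors and BH3-only genes. It was -1.23 and -0.92 in the KO-labelled libraries and -1.10 and -0.77 in the het-labelled ones. The groups interleaved, with KO library 1 lowest and heterozygous library 2 highest. Their means were -1.07 ± 0.22 and -0.93 ± 0.23 (SD, n = 2 each), a difference of -0.14 that is smaller than the spread within either label, and its sign turned when KO library 1 (0.015) or heterozygous library 2 (0.023) was left out. The effector sum alone did not overlap, at 80.8 and 68.0 against 55.1 and 56.3 CPM per kilobase, and nearly all of it was Bax. The level of these ratios depends on the exon lengths used. In CPM not divided by length the first ratio was -0.18 and 0.12 against -0.022 and 0.23, again interleaved, with a difference of -0.14. Pro-survival over effectors alone was -0.85 and -0.55 against -0.56 and -0.32 per kilobase, but 0.44 and 0.73 against 0.78 and 0.94 in CPM. In CPM both KO-labelled libraries thus lay below both het-labelled ones for this ratio. Per kilobase the groups overlapped narrowly, with KO library 2 at -0.552 and heterozygous library 1 at -0.562. With 2 libraries against 2 an exact permutation test cannot go below 0.33, so no test is given.

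**Figure D3:**
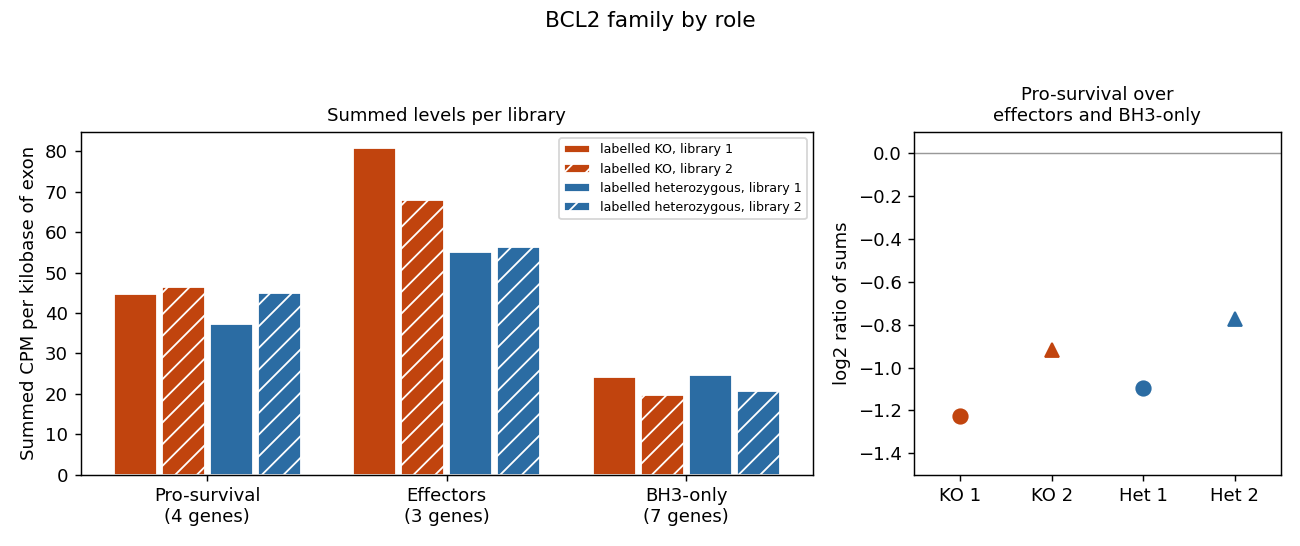
Left, summed CPM per kilobase of exon of the pro-survival, effector and BH3-only genes in each library (bars; orange, labelled KO; blue, labelled heterozygous; hatched, library 2); right, the log2 ratio of the pro-survival sum over the sum of the other 2 groups. The effector sum was 80.8 and 68.0 in the KO-labelled libraries and 55.1 and 56.3 in the het-labelled ones, while the ratios interleaved between -1.23 and -0.77.

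Of the caspases and Apaf1, 0 of 5 passed, beside 2.54% of all genes tested. Apaf1 (chromosome 10, 90989311 to 91082770, GRCm38, minus strand), the scaffold of the apoptosome, was at 7.15 and 6.62 CPM in the KO-labelled libraries and at 10.8 and 11.6 CPM in the het-labelled ones. The labels did not overlap (log2 fold change -0.70, SE 0.29, edgeR adjusted p = 0.291). Casp9, the caspase it recruits, was at 21.0 and 25.4 against 24.3 and 19.9 CPM, and its groups overlapped (log2 fold change 0.07, 95% interval -0.45 to 0.59). Casp8, the initiator used by death receptors, was at 13.4 and 20.95 CPM under the KO label and 11.5 and 11.7 CPM under the heterozygous label. The labels did not overlap, and KO library 2, which had the highest immune marker sum (959 CPM), was the high one (log2 fold change 0.56, SE 0.29, edgeR adjusted p = 0.396); the part of the immune markers in it was not tested. Casp2, an initiator tied to p53 signalling through PIDD1, had the highest CPM of the group, at 29.9 and 39.6 against 27.5 and 24.9 CPM, and did not pass either (0.41, edgeR adjusted p = 0.388). Casp6, an executioner, was nearly level (11.3 and 12.1 against 12.4 and 12.7 CPM; log2 fold change -0.10, 95% interval -0.71 to 0.50).

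The 3 regulators of caspases overlapped between the labels, as did 7466 of all 14649 genes tested. Diablo, the gene of SMAC, which relieves caspases of their inhibitors, was at 80.4 and 59.55 CPM under the KO label and 71.5 and 81.5 CPM under the heterozygous label (log2 fold change -0.13, 95% interval -0.57 to 0.32). KO library 2 was the low one. Up to 40.9% of the exon length of Diablo, summed over gene records that may overlap each other, is shared with other coding genes, so its level is uncertain. Smaller shared stretches make Bcl2l2 (13.3%), Bid (17.7%), Bad (20.5%) and Casp9 (up to 3.62%) uncertain as well. Xiap, an X-linked gene that encodes an inhibitor of caspases, was at 7.28 and 7.78 against 6.04 and 7.33 CPM (0.17, 95% interval -0.60 to 0.95). Cflar, the gene of the caspase-8 regulator cFLIP, was at -0.22 (edgeR adjusted p = 0.618).

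**Figure D4:**
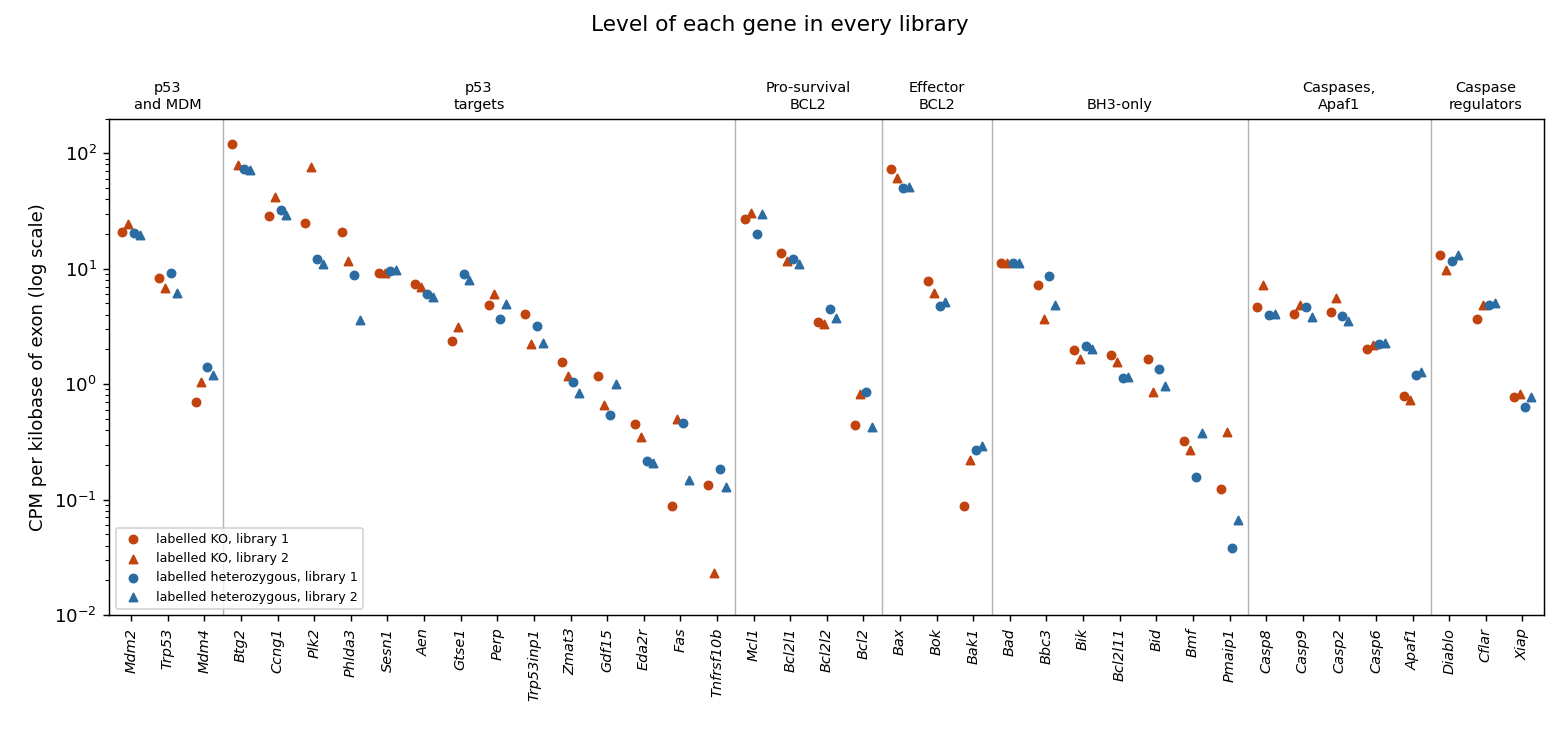
Level of each of the 39 genes in every library, in CPM per kilobase of exon on a log scale, grouped by role and ordered by mean level within each role (orange, labelled KO; blue, labelled heterozygous; circles, library 1; triangles, library 2). Btg2 and Bax had the highest means (86.1 and 58.8 CPM per kilobase), and Bak1, Pmaip1 and Tnfrsf10b the lowest (0.217, 0.154 and 0.117).

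Ordered per kilobase of exon, the genes spanned from Btg2 at a mean of 86.1 to Tnfrsf10b at 0.117 CPM per kilobase over the 4 libraries. Bax (58.8), Ccng1 (32.9), Plk2 (31.2), Mcl1 (26.9) and Mdm2 (21.2) followed Btg2. Ccng1, at 28.8 and 41.5 against 32.1 and 29.0 CPM per kilobase, and its neighbour Plk2, at 24.9 and 76.7 against 12.1 and 11.0, had overlapping ranges, as did Plk2 and the next gene, Mcl1, at 27.2 and 30.6 against 19.9 and 29.8. At the low end lay Tnfrsf10b, Pmaip1, Bak1, Bmf and Fas.

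Other genes of the same pathways came from lists drawn up beside the 39. Of 92 tested, 2 fell, 0 rose and 90 did not pass, which is 2.17% beside 2.54% of all genes, and the median log2 fold change was 0.03. At an unadjusted p under 0.05, 10 were higher, 10.9% beside 9.12% of all genes, and 3 lower, 3.26% beside 7.75%, while DESeq2 called 3 higher and 3 lower and limma-voom 0 higher and 3 lower. Both that fell have roles in mitosis. Birc5, the gene of survivin, an inhibitor-of-apoptosis family member that works in the chromosomal passenger complex, was at 4.32 and 9.24 CPM under the KO label and 30.9 and 41.5 CPM under the heterozygous label. Its log2 fold change was -2.41 with an SE of 0.38 (edgeR adjusted p = 0.0265; 0.116 without heterozygous library 2, with a range of 4.21e-08 to 0.116 over all alternatives). Ckap2, a p53-regulated gene of the spindle, was at 3.68 and 8.71 against 35.9 and 31.3 CPM. Its log2 fold change was -2.44 with an SE of 0.40 (edgeR adjusted p = 0.0293). Without heterozygous library 1 the adjusted p was 0.0616 and without heterozygous library 2 it was 0.0911, in a range of 1.21e-07 to 0.0911 over all alternatives. With a KO library left out the log2 fold change of Ckap2 was -1.97 (without library 1) or -3.19 (without library 2), and that of Birc5 was -1.99 or -3.07. For both genes the 2 labels were far apart. The mitosis sum, of which Birc5 is part, moved with both; its part in their differences was not tested.

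By list, 1 of 31 further p53 targets fell (Ckap2) and 30 did not pass, which is 3.23% called beside 2.54% of all genes. At an unadjusted p under 0.05, 4 were higher, with log2 fold changes of 0.65 to 1.66, and 2 lower. These were 12.9% beside 9.12% of all genes and 6.45% beside 7.75%. Cdkn1a, one of the 4 that were higher and the gene of the cell cycle inhibitor p21, the best known target of p53, is named here after its values were seen. It was at 105 and 91.4 CPM in the KO-labelled libraries and at 60.1 and 43.1 CPM in the het-labelled ones. Both KO-labelled libraries were higher, and the log2 fold change of 0.93 did not pass (SE 0.20, edgeR adjusted p = 0.0664). By DESeq2 it did, at an adjusted p of 0.00132, the lowest of a range up to 0.387. Tnfrsf23, a mouse decoy receptor for TRAIL, lower like Ckap2 and also named after its values were seen, was at 13.5 and 20.9 CPM under the KO label and 39.1 and 45.4 CPM under the heterozygous label. The labels did not overlap, and it missed the threshold narrowly (log2 fold change -1.30, SE 0.25, edgeR adjusted p = 0.0504, with a range of 0.000237 to 0.239 over all alternatives). Of 16 regulators of p53, 0 passed, and 2 were higher at an unadjusted p under 0.05 (12.5% beside 9.12% of all genes). The smallest p-values were those of Trp53bp2, which binds p53, and Hipk2, a kinase that phosphorylates it. Trp53bp2 was at 53.6 and 74.7 against 48.9 and 39.7 CPM (log2 fold change 0.53, edgeR adjusted p = 0.268). Hipk2 was at 48.4 and 28.2 against 23.0 and 25.5 CPM (0.66, edgeR adjusted p = 0.284). For both, the KO-labelled libraries lay above the het-labelled ones.

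Of 11 further BCL2-related genes and 5 further caspases, 0 passed. At an unadjusted p under 0.05, 1 of each was higher, Bcl2a1b (9.09% of its list) and Casp12 (20%), beside 9.12% of all genes. Bcl2a1b, a pro-survival gene of leukocytes with near-identical copies that make its counts uncertain, was at 2.16 and 5.50 CPM under the KO label and 1.34 and 0.636 CPM under the heterozygous label. Casp1, the inflammasome caspase, was at 0.913 and 4.81 against 0.516 and 1.33 CPM, and its groups overlapped (log2 fold change 1.63, edgeR adjusted p = 0.446). In both genes KO library 2 was highest, the library with the highest immune marker sum (959 against 278 to 353 CPM in the others); the part of those markers was not tested. Casp12, an inflammatory-type caspase of the endoplasmic reticulum in rodents, had the smallest p of these caspases (1.61 and 2.47 against 0.465 and 0.242 CPM, log2 fold change 2.51, edgeR adjusted p = 0.190), and Bnip2 followed Bcl2a1b in its list (37.6 and 50.2 against 33.7 and 34.3 CPM, 0.37, edgeR adjusted p = 0.414). Of 14 inhibitors of apoptosis and mitochondrial factors, Birc5 fell and 13 did not pass, which is 7.14% called beside 2.54% of all genes. Of 15 genes of death receptor signalling, 0 passed, and 1 was higher at an unadjusted p under 0.05 (6.67% beside 9.12% of all genes). Tnfrsf1a, the main TNF receptor, and Cyld, a deubiquitinase, were nearest to passing. Tnfrsf1a was at 50.5 and 37.6 against 31.4 and 27.8 CPM (0.57, edgeR adjusted p = 0.223), and Cyld at 57.3 and 78.5 against 87.7 and 85.2 CPM (-0.35, edgeR adjusted p = 0.406).

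BMAL1 and CLOCK bind the E-box CACGTG, and 7 of the 34 listed genes with a RefSeq promoter window held it, 20.6%, beside 8.09% of all 27025 genes with a window, a set that includes non-coding genes. Each E-box of these genes is shown in capitals with up to 10 flanking bases, on the strand of the gene (GRCm38.p6), because these are the places in the listed promoters where the letters of the BMAL1 element occur.
Trp53, chr11:69580359-69580384, plus strand: tttcccctccCACGTGctcaccctgg
Bax, chr7:45466892-45466917, minus strand: cgatgatgatCACGTGactagtcctg
Bax, chr7:45466849-45466873, minus strand: gcggggcaccCACGTGagggccgca
Bbc3, chr7:16310357-16310382, plus strand: ggggcgggcgCACGTGgcggcgtcga
Aen, chr7:78895969-78895994, plus strand: gcaagggttcCACGTGaaacctggga
Fas, chr19:34290539-34290564, plus strand: aagtgacataCACGTGttcaaagcga
Gdf15, chr8:70632163-70632188, minus strand: cagggcagggCACGTGtgagcatcca
Eda2r, chrX:97377160-97377175, minus strand: gttgttgctaCACGTG
The letters are the same on both strands. Of these 7 genes 0 passed, beside 2.54% of all genes tested. Levels were higher for 4 and lower for 3, where Trp53 is one of the lower ones and turned sign by library totals alone (0.0045). The log2 fold changes of the 7 ran from -0.31 (Bbc3) to 0.93 (Eda2r) with a median of 0.24. The 26 tested genes with a window but no CACGTG (Hrk, also without it, was not tested) ran from -1.63 to 2.14 with a median of 0.12. The ranges overlapped, and a match is not a bound site. The p53 half-site consensus was present, by letters on both strands, in the windows of 8 of the 34 genes (Trp53, Mdm2, Bax, Aen, Ccng1, Sesn1, Gtse1 and Bmf). That is 23.5%, beside 9.55% of all genes. A full site was found for 0 of the 34, beside 20 of all 27025 genes (0.074%), so its absence from so few windows says little. Sites outside the windows, such as those further into a gene, were not searched.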

How the data were processed

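RNA of sorted β-cells was read in 4 libraries, prepared by the SMART-Seq v4 method per the labels' protocols. STAR and edgeR are listed, with the build mm10, in the submitters' processing notes; not given in the sources used here were versions, roles, the counting tool and strand setting. The authors deposited whole-number counts per gene symbol, unnormalized, and these were used. A second, scaled table that they deposited was not used here.

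Low counts were removed by filterByExpr at a minimum count of 10 and total of 15. The rest were TMM-scaled and tested in edgeR 4.0.16 (R 4.3.3, glmQLFit, glmQLFTest, 2-sided) with group as the only term. The test reports no SE, so each SE was computed as the size of the log2 fold change over the square root of the F statistic. The 95% intervals come from that SE and the degrees of freedom of the fit. The biological coefficient of variation was 0.297. A count of 3 equals 0.0775 to 0.0937 CPM, and depth covers counting error only. Libraries of a label differed by more than sampling noise (chi-square per degree of freedom 66.7 and 44.8). The steps were tested on simulated data. Exon lengths and positions are from GENCODE M21, and promoter windows are from RefSeq (GRCm38.p6), found for 34 of 40 genes.

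The genes, lists and tests were chosen with earlier results of these data known. Library values are given for genes with an adjusted or unadjusted p under 0.05, for 11 central genes chosen by name, for other pathway genes past the threshold (or else the 2 of a list with the smallest p) and for the highest and lowest of each role. Alternatives were RLE or no scaling, other filters, DESeq2 1.42.0, limma-voom (limma 3.58.1), a replicate block, leaving out each library and a threshold of 0.1. Other genes of the pathway lists are given by counts only, and some values are not reported here.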

Additional observations from a re-analysis of the deposited data

How the results depend on the processing

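The libraries of a label share replicate numbers with the other label, but same-numbered libraries did not deviate together (r = -0.02 across 14649 genes), so the numbers are not taken as pairs. With a replicate block 591 genes passed over all, 3 of the 39 and 4 of the other pathway genes, against 372, 1 and 2. Under no filter the counts were 808, 2 and 6, by DESeq2 1181, 3 and 6, at a threshold of 0.1 they were 728, 2 and 6, and at a mean of 5 CPM 2 of the 39 and 4 pathway genes passed. Leaving out each library gave 25 to 826 genes over all, 0 to 3 of the 39 and 0 to 4 pathway genes (25 without heterozygous library 2, where 0 of the 39 passed, as without heterozygous library 1); such fits assume that the lone library left in a group varies like the others. Without Gtse1 0 of the 39 passed, and without Birc5 and Ckap2 0 of the other pathway genes, counts chosen after seeing the data. The log2 ratio of survival over death genes differed by -0.30 to 0.023 with a library left out.

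Signs of differences near 0 turned. By library totals alone Trp53 was at 0.0045, Bcl2 at 0.013 and Bad at 0.042, and at a mean of 5 CPM they were at 0.0074, 0.014 and 0.034. With a library left out, log2 fold changes ran from -0.30 to 0.28 for Trp53, -0.089 to 0.42 for Ccng1, -0.34 to 0.55 for Trp53inp1, -1.77 to 0.99 for Fas, -0.27 to 0.75 for Gdf15, -0.55 to 0.58 for Bcl2, -0.023 to 0.24 for Bcl2l1, -0.051 to 0.53 for Mcl1, -0.90 to 0.15 for Bbc3, -0.47 to 0.51 for Bid, -0.38 to 0.88 for Bmf, -0.078 to 0.21 for Casp9 and -0.39 to 0.070 for Diablo. The cause was not tested. With 2 libraries per label, intervals of genes with few counts (Fas, Tnfrsf10b, Bak1 and Pmaip1) were too wide to show a difference at this depth.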
